A study of Mus musculus with 2 samples.

Results

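The cholesterol synthesis and uptake genes described here are 27 genes named by their place in the pathway. No cut on a measured value was used, but earlier results of these data were known when the genes were chosen. They comprise 19 enzymes of the route from acetyl-CoA to cholesterol, 4 genes that regulate the transcription factor SREBP2 and 4 genes of sterol uptake and transport. The list does not hold every gene of the pathway, and genes outside it were not analysed here as members. All 27 matched 1 gene each among the 55421 listed in both count tables, and 26 had a mean of at least 50 counts over both libraries and were compared, among 12064 such genes. The exception was Npc1l1, which was listed at 0 in both libraries.

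The RNA came from mouse liver, in 1 WT library from Rcrin flox animals and 1 library made from conditional knockouts of Rcrin, both labelled with a time of 8 weeks. A floxed allele keeps the gene in place between recombination sites. The Cre line, the cells it deletes in, the sex of the mice and the number of mice behind a library are not given in the sources used here. Expression of Rcrin was not analysed here, so the depletion was not checked. The question was how liver gene expression differs when Rcrin is depleted. With 1 library per genotype there were no replicates, so differences are given without a test or p-value, and each is one between these libraries. The WT library holds 65121596 counts and the knockout library 63587567. Every interval is an exact 95% interval of the ratio and covers counting error only. In bulk tissue, fewer cells of a type and less RNA per cell cannot be told apart.

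Cells make cholesterol by joining acetyl-CoA units into mevalonate, building isoprenoid units into squalene, closing squalene to lanosterol and trimming lanosterol to cholesterol. The liver is a main site of this synthesis in the body. When sterols in the endoplasmic reticulum run low, the escort protein Scap carries SREBP2 to the Golgi, where it is cut and released to switch on genes of synthesis and uptake. When sterols are plentiful, the Insig proteins hold Scap and SREBP2 back.

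Most members lay within 2-fold between the libraries. Squalene epoxidase (Sqle), a control step of the pathway, stood 2.01-fold lower in the knockout library, and the sterol demethylation enzymes Msmo1 and Hsd17b7 stood 2.16-fold and 2.07-fold higher. The other 23 members passed that limit in neither direction. Of the 26 compared, 19 had a log2 ratio of knockout over WT below 0 and 7 above, while 50.8% of all genes compared lay below 0. The members had a median log2 ratio of -0.17, from -1.01 to 1.11, with 25% of members below -0.43 and 25% above 0.01. All genes compared had a median of -0.01, with quartiles at -0.44 and 0.44.

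Counts of members past 2-fold stood near or under the share of all genes. In the higher direction 2 of 26 members passed, against 8.45% of all genes compared, and in the lower direction 1 of 26 passed, against 8.61%. At a limit of 1.5-fold, 2 members were higher, where 19.0% of all genes were, and 3 were lower, where 18.8% of all genes were. The 3 lower ones were Sqle, Srebf2 and Mvd. The 26 members made up 0.321% of all counts in WT and 0.277% in the knockout, and their summed level was 3155 (WT) and 2818 (knockout) in CPM, the level per library total after TMM scaling. Msmo1 lay among the highest 6.86% of genes compared, Hsd17b7 among the highest 7.64% and Sqle among the lowest 8.49%.

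**Figure D1:**
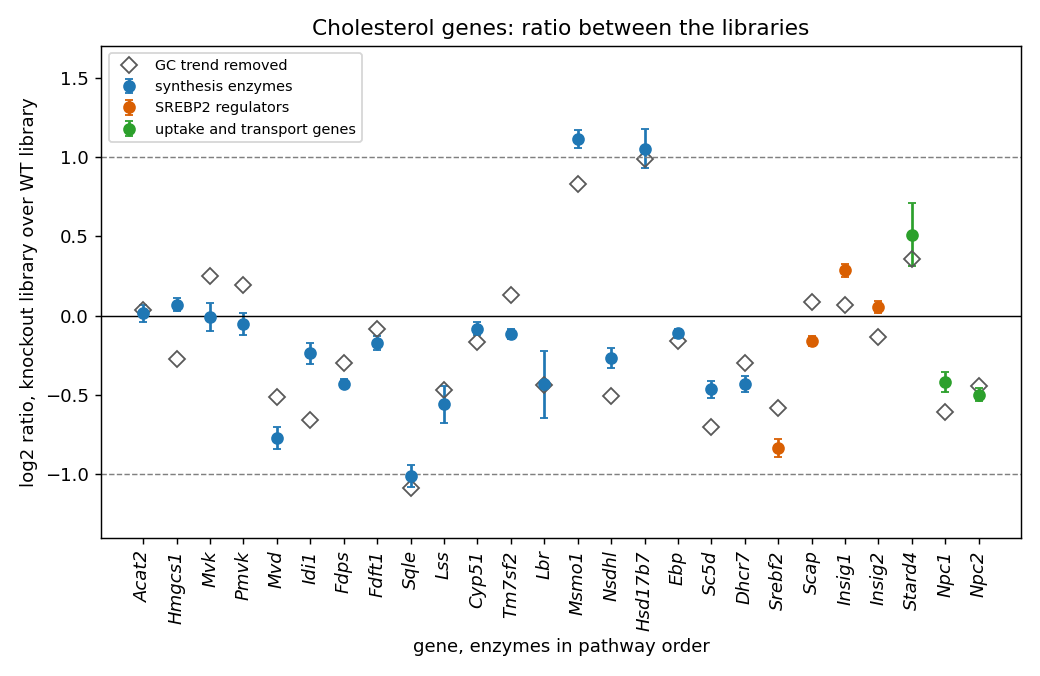
Log2 ratio of the knockout library over the WT library (y axis) for the 26 members compared, with enzymes in pathway order on the x axis. Filled points carry the exact 95% interval for counting error, open diamonds give the value with the GC trend removed, and dashed lines mark 2-fold. Sqle sits at -1.01, Msmo1 at 1.11 and Hsd17b7 at 1.05, and 19 of 26 filled points lie below 0.

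The ratio declined with the GC content of the transcript across all genes, so each value is also given with that trend removed. The trend stood at 0.45 on the log2 scale for transcripts of 40% GC, 0.01 at 50% and -0.27 at 60%. Members ran from 40.8% GC (Idi1) to 59.3% (Mvk), with a median of 49.8%, close to the median of 50.8% over all genes compared. With the trend removed the median log2 ratio of the members was -0.22 and 17 of 26 lay below 0, where 50.6% of all genes did. No member was then higher by 2-fold, against 7.52% of all genes, and 1 was lower, against 8.17%. That 1 was Sqle, at -1.09, while Msmo1 came to 0.83 and Hsd17b7 to 0.99. Hmgcs1, Mvk, Pmvk, Tm7sf2, Scap and Insig2 changed sign with the correction, so they have no firm direction.

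**Figure D2:**
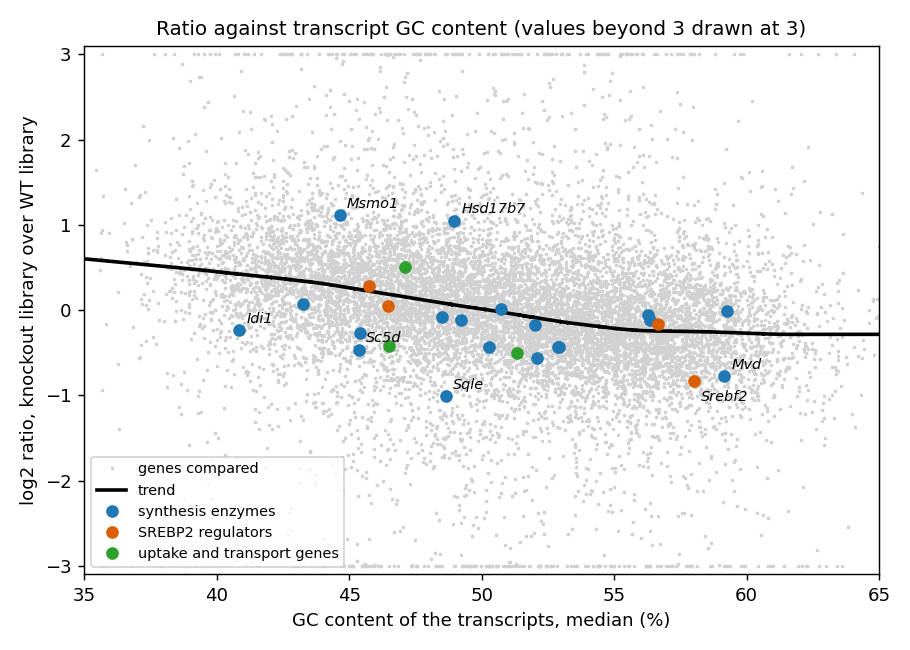
Log2 ratio of the knockout library over the WT library (y axis) against the median GC content of each gene's transcripts in percent (x axis), for all genes compared (grey) and the members (coloured by role). The black line is the trend, which passes from 0.45 at 40% GC to -0.27 at 60%. Sqle lies below it and Msmo1 and Hsd17b7 above it.

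Promoter sequence was looked up because SREBP2 is known to control many genes of cholesterol synthesis and uptake. It works with the CCAAT-binding factor NF-Y. Which members are its direct targets was not tested. RefSeq gene starts on GRCm38.p6 were at hand for 22 of the 27 members, with Sqle, Fdps, Fdft1, Stard4 and Npc1 the others. The 250 bases before each start were searched on both strands for the SREBP site TCACNCCAC, its core CACNCCAC, which lies inside it, the NF-Y box CCAAT and the E-box CACGTG. The NF-Y box was present before a start of 20 of 22 members (90.9%), the exceptions being Acat2 and Scap, and in 40.5% of the 9291 genes compared that have an entry. Npc1l1, which was not compared, is 1 of the 20, and 37.5% of all 27025 genes with an entry had the box. The full SREBP site was present before 1 member, Hmgcs1, and 1.35% of genes compared. The core was present before 3 members (Acat2, Hmgcs1 and Insig1) and 6.53% of genes compared, and the E-box before 5 members and 9.98%. Matches past the GENCODE gene start were counted too, such as the Insig1 core match at -9 to -2 and the NF-Y box of Cyp51. For 17 of the 22 members, the bases after a listed start were found in a GENCODE transcript of the gene. A match is a description of these letters and not of binding, and genes with several listed starts had more bases searched. Only exact matches to these letters were counted, so a gene without a match can still hold a variant of the site.

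4 of these windows are printed 5′ to 3′ in the direction of transcription, with matches to the SREBP site and the NF-Y box in capitals (ATTGG is CCAAT read on the other strand). Hmgcs1 is shown as the 1 member with the full SREBP site, Mvd and Srebf2 as the lowest members with an entry, and Hsd17b7 as 1 of the higher members. Only the part outside annotated exons is given, which is all 250 bases for Hmgcs1 and Mvd, 162 for Srebf2 and 167 for Hsd17b7.
Hmgcs1, chr13:119690101-119690350, plus strand: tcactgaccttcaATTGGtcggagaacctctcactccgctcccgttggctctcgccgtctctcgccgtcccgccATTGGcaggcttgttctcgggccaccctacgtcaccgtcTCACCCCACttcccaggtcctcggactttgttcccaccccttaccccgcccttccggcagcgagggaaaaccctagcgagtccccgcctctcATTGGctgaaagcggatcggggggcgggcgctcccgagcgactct
Mvd, chr8:122443423-122443672, minus strand: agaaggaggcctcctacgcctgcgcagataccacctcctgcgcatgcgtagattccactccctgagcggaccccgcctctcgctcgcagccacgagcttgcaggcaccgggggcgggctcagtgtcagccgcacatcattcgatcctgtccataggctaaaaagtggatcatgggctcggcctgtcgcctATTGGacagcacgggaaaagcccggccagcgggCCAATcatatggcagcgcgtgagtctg
Srebf2, chr15:82147019-82147180, plus strand: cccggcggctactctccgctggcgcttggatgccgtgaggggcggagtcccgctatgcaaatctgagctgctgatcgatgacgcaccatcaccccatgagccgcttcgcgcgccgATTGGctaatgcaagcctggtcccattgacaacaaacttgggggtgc
Hsd17b7, chr1:169969242-169969408, minus strand: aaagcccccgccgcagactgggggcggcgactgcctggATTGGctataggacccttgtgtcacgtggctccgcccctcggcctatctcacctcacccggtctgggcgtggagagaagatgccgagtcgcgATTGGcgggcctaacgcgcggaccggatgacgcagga
The SREBP site of Hmgcs1 lies between NF-Y boxes, 137 to 129 bases before the start.

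**Figure D3:**
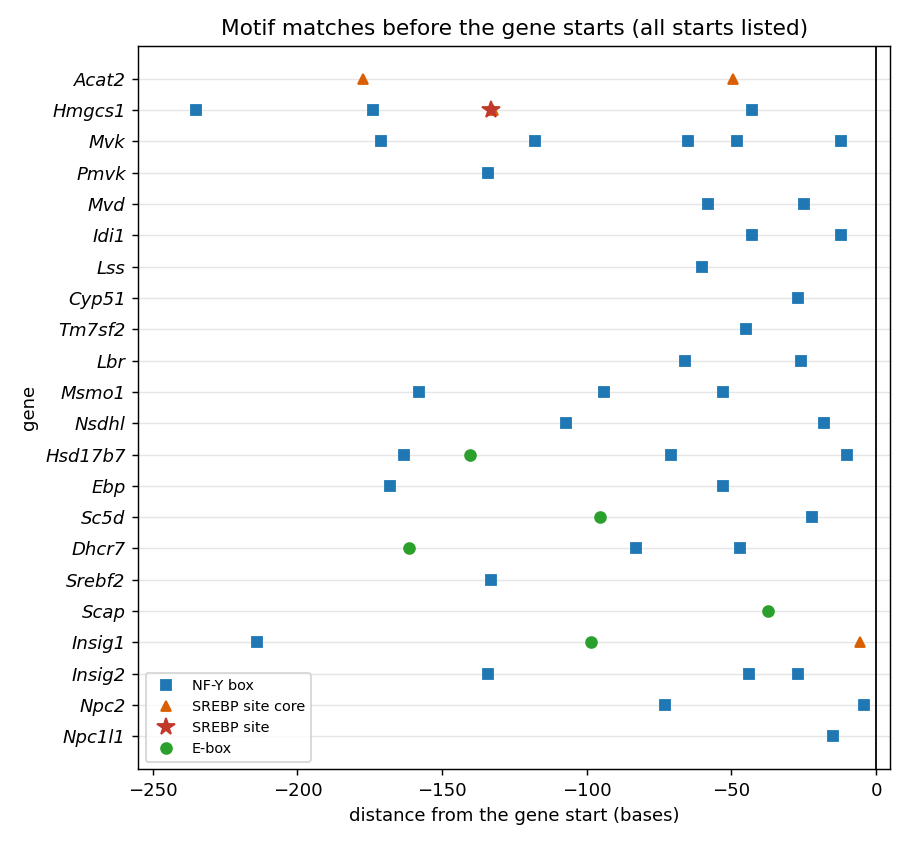
Matches to 4 motifs (symbols) before the RefSeq starts of 22 members (y axis), by distance from the start in bases (x axis). All listed starts of a gene share a row. NF-Y boxes appear in 20 of 22 rows and the full SREBP site in 1.

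The first 6 enzymes lead from acetyl-CoA to isopentenyl and dimethylallyl diphosphate. Their median log2 ratio was -0.03, and Mvd alone lay past 1.5-fold. Acat2, which joins acetyl-CoA units, had 92.9 CPM (WT) and 93.9 (knockout) (log2 ratio 0.01, interval -0.04 to 0.07, and 0.04 with the GC trend removed). Its transcript matches that of the paralog Acat3 at 97.7% over 1477 bases, and it shares 445 bases with Tcp1, so reads can be shared between these genes, and the sum of Acat2 and Acat3 had a log2 ratio of -0.21. HMG-CoA synthase (Hmgcs1) had 130.9 and 137.3 CPM (log2 ratio 0.07, and -0.27 with the GC trend removed). Mevalonate kinase (Mvk) had 33.2 and 33.0 CPM (-0.01, and 0.25 with the trend removed). Phosphomevalonate kinase (Pmvk) had 56.5 and 54.5 CPM (-0.05, and 0.19 with the trend removed). For Acat2, Mvk and Pmvk the counting interval held 0, which it did for no other member compared.

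Mevalonate diphosphate decarboxylase (Mvd, ENSMUSG00000006517, GRCm38 chromosome 8 from 122433601 to 122443422, minus strand, 11 exons) makes isopentenyl diphosphate. It had 4763 counts (WT) and 2631 (knockout), or 71.9 and 42.1 CPM. The knockout value was 1.71-fold lower (log2 ratio -0.77, interval -0.84 to -0.70), inside the limit of 2-fold, and the log2 ratio was -0.51 with the GC trend removed. The isomerase Idi1, which turns isopentenyl into dimethylallyl diphosphate, had 67.7 and 57.4 CPM (log2 ratio -0.24). It has the lowest GC content of the members, and its log2 ratio was -0.66 with the trend removed. Its 2 processed pseudogenes with near-identical sequence were listed at 0 in both libraries.

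The 4 enzymes from farnesyl diphosphate to lanosterol all stood lower in the knockout library, with a median log2 ratio of -0.49 (-0.38 with the GC trend removed, all 4 still below 0). This grouping was made after the values were seen. Farnesyl diphosphate synthase (Fdps), whose product also feeds protein prenylation, dolichol and ubiquinone, had 331 and 246 CPM (log2 ratio -0.43, and -0.30 with the GC trend removed). Its 6 similar pseudogenes held 0.469% as many counts as Fdps (WT) and 0.683% (knockout), and 26.7% of its exon bases overlap Gm43738 on the same strand, a gene listed at 0. Squalene synthase (Fdft1), which commits the path to sterols, had 146 and 129 CPM (-0.17, and -0.08 with the trend removed). Its exons overlap the opposite-strand gene Ctsb by 774 bases, and Ctsb had 89202 and 52563 counts, so without knowledge of strand the Fdft1 value is uncertain.

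Sqle (ENSMUSG00000022351, GRCm38 chromosome 15 from 59315077 to 59331192, plus strand, 11 exons) adds the first oxygen to squalene. It had 5436 counts (WT) and 2544 (knockout), or 82.0 and 40.7 CPM. This was the lowest ratio of the members (log2 ratio -1.01, interval -1.08 to -0.94), and the interval crosses the 2-fold limit. At 95% identity over 100 bases no other gene shared its sequence, and none overlapped its exons. Lanosterol synthase (Lss), which folds the epoxide into the ring system, followed with 1535 and 982 counts, or 23.2 and 15.7 CPM (log2 ratio -0.56, interval -0.68 to -0.44, and -0.47 with the GC trend removed).

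The 9 enzymes after lanosterol had a median log2 ratio of -0.12, with 7 below 0 and 2 above. Lanosterol demethylase (Cyp51), the cytochrome P450 of the pathway, had 152 and 143 CPM (log2 ratio -0.08, and -0.17 with the GC trend removed). Tm7sf2 and Lbr are alternative reductases for the next step, and Lbr is also a receptor of the inner nuclear membrane. Tm7sf2 had 305 and 282 CPM (-0.12, and 0.13 with the trend removed), with 12.1% of its exon bases shared with its neighbour Vps51. Lbr was low, with 453 and 316 counts (log2 ratio -0.43, interval -0.65 to -0.22, and -0.43 with the trend removed).

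Msmo1, Nsdhl and Hsd17b7 act together to remove methyl groups from the sterol ring, and they did not stand on the same side. Msmo1 (ENSMUSG00000031604, GRCm38 chromosome 8 from 64718139 to 64733792, minus strand, 6 exons), the oxidase that starts the removal, had 4047 counts (WT) and 8249 (knockout), or 61.1 and 132 CPM (log2 ratio 1.11, interval 1.06 to 1.17). Nsdhl, the dehydrogenase that releases the carboxyl group, had 67.0 and 55.7 CPM (log2 ratio -0.27, and -0.51 with the GC trend removed). Hsd17b7 (ENSMUSG00000026675, GRCm38 chromosome 1 from 169949535 to 169969241, minus strand, 9 exons), the ketone reductase that closes the cycle, had 830 and 1621 counts, or 12.5 and 25.9 CPM (log2 ratio 1.05, interval 0.93 to 1.17). With the GC trend removed Msmo1 stood at 0.83 and Hsd17b7 at 0.99, and with the trend of the longest transcript, an alternative chosen after seeing the data, at 0.89 and 0.79, so neither passed 2-fold under either. Hsd17b7 also lay just under 2-fold with total counts as the scale, and its interval crosses the 2-fold limit. The Msmo1 transcripts share stretches of up to 203 bases, at 95% identity or more, with 62 other genes, out of 6144 exon bases, so some of its reads could belong elsewhere. Shorter lists of such genes were found for Dhcr7 (25 genes, up to 227 bases) and Hmgcs1 (16 genes, up to 462 bases).

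The last steps stood lower. Ebp, which shifts a ring double bond, was the highest member per transcript length in both libraries and had 384 and 355 CPM (log2 ratio -0.11, and -0.16 with the GC trend removed). The desaturase Sc5d had 104 and 75.6 CPM (-0.46, and -0.71 with the GC trend removed). Dhcr7, the reductase whose loss causes Smith-Lemli-Opitz syndrome in people, had 115 and 85.2 CPM (-0.43, and -0.30 with the trend removed).

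**Figure D4:**
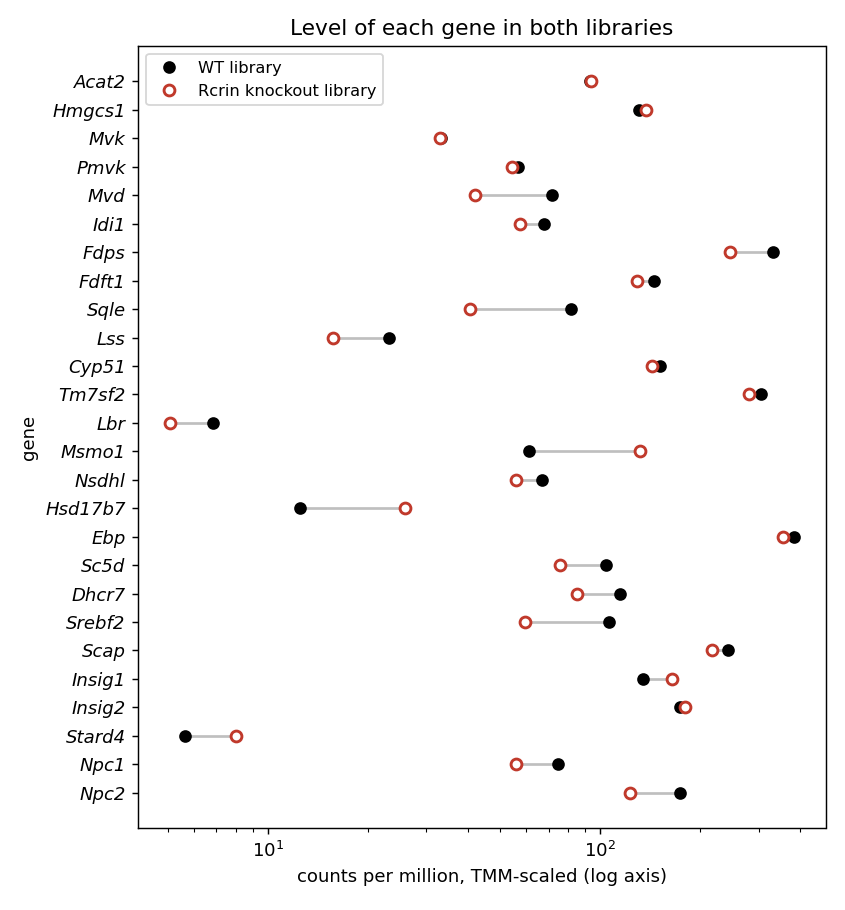
CPM after TMM scaling (x axis, log scale) of the 26 members compared (y axis) in the WT library (filled) and the Rcrin knockout library (open). Levels run from about that of Stard4 (5.64 in the WT library) to Ebp (384), and open points lie to the right of filled ones in 7 rows.

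Among the SREBP2 regulators, the gene of the factor itself stood lower and the others differed little. Srebf2, which encodes SREBP2 (ENSMUSG00000022463, GRCm38 chromosome 15 from 82147181 to 82205379, plus strand, 21 exons), had 7030 counts (WT) and 3715 (knockout), or 106 and 59.5 CPM. It was 1.78-fold lower (log2 ratio -0.83, interval -0.89 to -0.78), the member nearest to the 2-fold limit from inside, and stood at -0.58 with the GC trend removed. Its escort Scap had 243 and 217 CPM (-0.16, and 0.08 with the trend removed). Insig1, itself a target of SREBP2, had 135 and 164 CPM (log2 ratio 0.29, and 0.06 with the trend removed). Insig2, the form prominent in liver, had 174 and 181 CPM (0.05, and -0.13 with the trend removed). The 4 had a median of -0.05.

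Of the uptake and transport genes, both lysosomal cholesterol exporters stood lower. Npc1, the membrane protein that moves cholesterol out of lysosomes, had 74.8 and 55.9 CPM (log2 ratio -0.42, interval -0.48 to -0.36). Npc2, the soluble protein that hands cholesterol to Npc1, had 174 and 123 CPM (-0.50, interval -0.54 to -0.46). With the GC trend removed they stood at -0.61 and -0.45. Stard4, a cytosolic sterol carrier and SREBP2 target, stood on the other side with 374 and 502 counts (log2 ratio 0.51, interval 0.31 to 0.71, and 0.35 with the trend removed). Npc1l1, the sterol importer of the intestine, had 0 counts in each library, which allows up to 0.0453 CPM (WT) and 0.0480 (knockout).

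Per transcript length, the order of the members was much the same in both libraries, with a few shifts. In TPM (a level per transcript length, here by merged exon length), Ebp was first (379 for WT, 317 for the knockout), and Fdps and Tm7sf2 held ranks 2 and 3 in the WT library and changed places in the knockout library. Msmo1 moved from rank 21 to rank 14 of 27 and Mvd from rank 6 to rank 13. Sqle moved from rank 18 to rank 21. This scale divides by merged exon length, which for Lss is 10787 bases.

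Genes that border the pathway were taken from 5 lists, which were chosen with earlier results of these data known. Counts of their genes past 2-fold stand beside 8.45% higher and 8.61% lower over all genes compared, or 7.52% and 8.17% with the GC trend removed. The genes of SREBP processing and sterol-regulated degradation had a median log2 ratio of -0.18 over 15 compared. By 2-fold 1 was higher and 3 were lower, or 1 and 2 with the GC trend removed. Srebf1, which encodes SREBP1, led at 1.55 (4569 and 12618 counts), followed by the vesicle coat gene Sec23a at 0.53. Syvn1, a ubiquitin ligase of the endoplasmic reticulum, stood at -1.12 (-0.87 with the GC trend removed). Paqr3, a Golgi anchor of Scap that was named after its value was seen, stood at -1.01.

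Isoprenoid genes outside the sterol branch had a median of 0.21 over 16 compared, 2 higher and 1 lower by 2-fold. With the GC trend removed 1 was higher (Dolk) and 1 lower. Among the 15 with at least 3 exons 1 was higher (Ggps1) and 1 lower, so the higher gene was not the same. The highest was Dolk, a 1-exon gene listed at 0 in the WT library with 1178 counts in the knockout library. No fold is given for it, since of 354 compared genes that have 1 exon, 30.8% read 0 in just 1 library. Ggps1, which makes geranylgeranyl diphosphate, stood at 1.12 (0.89 with the GC trend removed). The farnesyltransferase subunit Fntb was lowest at -1.59, followed by the methyltransferase Icmt at -0.37.

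Genes that export, esterify or sense cholesterol had a median of -0.12 over 14 compared, with 0 higher and 1 lower, as with the GC trend removed. Lcat, which esterifies cholesterol in plasma lipoproteins, had 60149 and 17784 counts (log2 ratio -1.67), and Soat1 followed at -0.78. The paired biliary exporters Abcg5 and Abcg8 were highest at 0.82 and 0.61. Oxysterol and bile acid genes had a median of 0.15 over 10 compared, 2 higher and 0 lower by 2-fold (1 higher and 0 lower with the GC trend removed), led by Hsd3b7 at 1.26 (19888 and 44842 counts) and Akr1d1 at 1.14 (0.86 with the GC trend removed). Cyp39a1 (-0.62) and Cyp27a1 (-0.25) were lowest.

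Intracellular sterol transport genes had a median of 0.08 over 14 compared, 0 higher and 1 lower by 2-fold, and the same counts with the GC trend removed. The list also held Mlxipl, a transcription factor of the glucose response that is no sterol carrier. Osbp, which exchanges cholesterol for a lipid phosphate between the endoplasmic reticulum and the Golgi, was lowest with 3271 and 598 counts (5.15-fold lower, log2 ratio -2.37), followed by Osbpl9 at -0.69. Its relatives Osbpl2 and Osbpl1a were highest at 0.67 and 0.61. Beside these, the median of the 19 synthesis enzymes was -0.17.

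**Figure D5:**
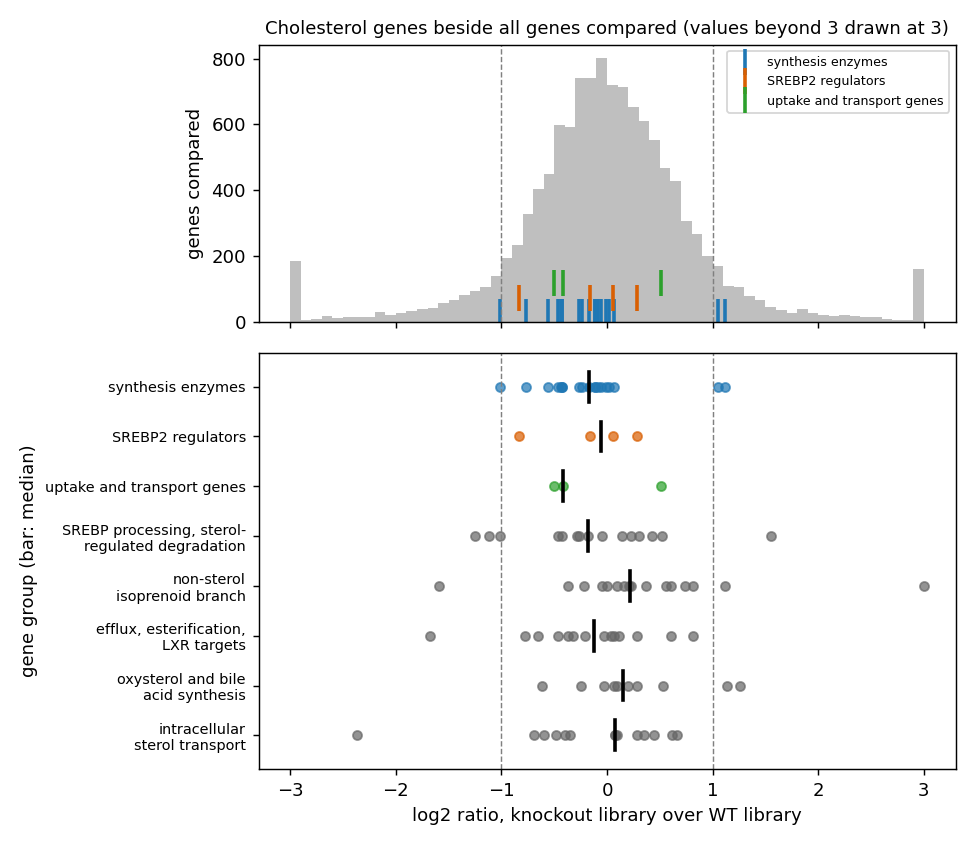
Top, number of genes compared (y axis) by log2 ratio of the knockout library over the WT library (x axis), with the members as coloured ticks. Bottom, each compared gene of the 3 member groups and the 5 bordering lists, with the median as a black bar (-0.17 for the synthesis enzymes, -0.05 for the SREBP2 regulators and -0.42 for the uptake and transport genes). Dashed lines mark 2-fold.

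The libraries also differed in markers of cell types, and the part of this in the values above was not tested. Hepatocyte markers were abundant in both, 7 of 8 stood above 0, and their summed level was 86374 CPM (WT) and 134630 (knockout). Most of that sum was Alb (50542 and 89625 CPM), while Apoa1 stood at 0.01 and Tat at -0.15. Neutrophil markers summed to 45.1 and 17.8 CPM, with 5 of 5 below 0, and red blood cell markers to 1837 and 562, with 3 of 4 below 0. The red blood cell marker on the other side was Alas2, at 0.55. Macrophage markers stood at 634 and 495, with 5 of 6 below 0, and Clec4f held 317 and 269 CPM of that sum. Vsig4 stood on the other side at 1.02 (0.80 with the GC trend removed). Endothelial markers summed to 256 and 272 CPM with members on both sides, 2 of 5 below 0, from Stab2 at -0.63 to Lyve1 at 0.82. Stellate cell markers summed to 80.1 and 74.4 CPM, also with members on both sides, 3 of 5 below 0, from Col1a1 at -1.67 to Dcn at 0.37. Cholangiocyte markers summed to 26.9 and 16.3 CPM, 3 of 5 below 0, and most of that sum was Spp1 (19.6 and 9.65 CPM), while Krt7 stood at 0.68 and Epcam at 0.39. Lymphocyte markers summed to 5.61 and 5.68 CPM, and of the 2 compared 1 lay below 0. Of the enterocyte list, Lct was at 0 in both libraries and the sum, mostly from Apoa4, which the liver also makes, was 459 and 115. The adipocyte markers Adipoq, Plin1 and Lep and the adrenal markers Cyp11a1, Cyp11b1 and Hsd3b1 were at 0 in both, with Star at 20 and 70 counts.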

How the data were processed

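The RNA was total liver RNA made into libraries with a SMARTER kit, per the labels' protocols. Each deposited table lists whole-number read counts by Ensembl gene identifier, not normalized by the authors as far as the values show. The submitters' processing notes name the build GRCm38 (mm10), and the aligner, counter, annotation and use of strand are not given in the sources used here. Names, exons and GC content were read from the GENCODE M21 annotation (GRCm38), which matched 55240 of 55421 genes. Groups were taken from the genotype labels. Library totals were 65121596 counts (WT) and 63587567 (knockout), scaled with TMM factors of edgeR 4.0.16 (1.02 and 0.982). The log2 ratio had 0.5 reads added. A gene was compared if its mean count reached 50, and a difference was called at 2-fold. The groups hold 1 library each, so edgeR and DESeq2 served for scaling factors alone. Intervals are exact conditional (Clopper-Pearson) and cover counting error only, since PCR reads without molecular identifiers are not independent molecules. The GC trend was a lowess curve with a span of 0.3 over all genes compared (statsmodels 0.14.6). Similar sequence means at least 95% identity over 100 bases of transcript. Named genes were all members and the 2 highest and 2 lowest of each bordering list, of which 1 gene is not reported here. Alternatives were DESeq2 1.42.0 size factors, total counts, other level filters, 5 reads added, other limits, the mean, genes with at least 3 exons and the GC trend. The calculations were tested on simulated data. The members, lists and tests were chosen with earlier results of these data known.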

Additional observations from a re-analysis of the deposited data

How the results depend on the processing

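The count of 2 members higher by 2-fold was 1 with total counts as the scale (Hsd17b7 lay just short), 0 with the GC trend removed, 0 with the GC trend taken from the longest transcript (an alternative chosen after seeing the data), 0 at a limit of 4-fold and 1 where the exact interval had to lie wholly beyond 2-fold. The count of 1 lower member was 3 at 1.5-fold, 0 at 4-fold and 0 by the exact interval. The median of the synthesis enzymes moved from -0.17 to -0.27 with the GC trend removed and to -0.23 with that of the longest transcript. The latter also moved the median of all members to -0.23 and that of the SREBP2 regulators to 0.0019. The median of the regulators thus has no firm direction. With the trend of the longest transcript removed, Srebf2 stayed below 0 (-0.56) and Insig1 above 0 (0.23), while Scap and Insig2 changed sign. DESeq2 size factors, 5 reads added, no level filter, a minimum of 500 counts (24 members left) and the limit to genes with at least 3 exons changed no member's side of 2-fold and no sign. Acat2 changed sign with total counts. Depth limits Lbr and Stard4 most, with intervals of 0.21 and 0.20 to either side. The spread between mice is unknown.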
